A study of Mus musculus with 12 samples.

Results

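The SOCS family feedback inhibitors were followed on 7 probe sets of 4 genes, out of 45037 non-control probe sets on the array: Socs2 (1449109_AT, 1418507_S_AT), Cish (1448724_AT), Socs1 (1450446_A_AT) and Socs3 (1416576_AT, 1455899_X_AT, 1456212_X_AT). The members were chosen by gene name, and the pairing of these probe sets with genes was given with the choice. RNA of CD4+ CD25+ spleen T cells was measured on Affymetrix mouse arrays in 4 groups of 3 samples, and every value below is a log2 GCRMA value (GCRMA corrects the background of Affymetrix probes, normalizes the arrays and summarizes each probe set). Treg cells, the suppressive CD4 T cells, were sorted fresh from spleen as CD25-high cells. Effector T cells were sorted as CD25-high CD4 cells after spleen cells had been cultured with anti-CD3, which triggers the T cell receptor, for 48 hours.

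Each population was taken from normal C57BL/6 mice and from a line named C57BL/6-2Rbeta-WT/thymus transgenic, called transgenic here. According to the study's design the transgenic line had been bred onto deficiency of the IL-2 receptor beta chain, and its T cells are described as IL-2R defective. The name of the transgene points to wild-type receptor beta in the thymus. Its promoter, and how much receptor the peripheral cells keep, are not given in the sources used here. C57BL/6 effector samples came from mice of 10 weeks (sample 1) and 14 weeks (samples 2 and 3), and transgenic effector samples from mice of 15, 14 and 9 weeks, with 1 mouse per array. Treg samples were pools. Those of C57BL/6 mice held 8, 8 and 15 mice of 12, 12 and 10 weeks, and those of transgenic mice held 4, 8 and 3 mice of 33, 13 and 7 to 16 weeks. The purification label of transgenic effector sample 3 describes fresh spleen cells, against its title and source, so effector results are given without it too. The tables used here pair no other probe set with a gene. The disrupted receptor gene, T cell and Treg markers and markers of other cell types were therefore not analysed here.

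SOCS proteins close a feedback loop. Cytokines such as IL-2 activate JAK kinases on their receptors, JAKs phosphorylate STAT factors, STATs switch on SOCS genes, and SOCS proteins then dampen the same pathway. All of them carry an SH2 domain, which binds phosphotyrosine, and a SOCS box, which recruits a ubiquitin ligase. CIS, the product of Cish, and SOCS2 act mainly by occupying phosphorylated receptors, while SOCS1 and SOCS3 can also block JAK kinase activity directly. Cish and Socs2 are known as STAT5 target genes downstream of IL-2. Socs1 is known for restraining interferon and common gamma chain cytokine signals, and Socs3 for restraining signals through gp130, the shared receptor of the IL-6 family.

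Promoter windows are shown because STAT factors bind the palindrome TTCNNNGAA, so its copies can be seen beside the genes' changes. RefSeq windows (GRCm38.p6) reach from 250 bases before 1 annotated start of a gene to 50 after it, and 3 of the 4 genes had one, all but Socs2. For Cish and Socs1 that start is the 5′ end of the annotated gene. For Socs3 it is position 117969366, 970 bases inside the annotated gene span, so the Socs3 window lies within that span and not before it. The stretches below end 25 bases after the start, run 5′ to 3′ on the gene's strand, and carry each TTCNNNGAA match in capitals.
Cish, chr9:107296409-107296683 (plus strand): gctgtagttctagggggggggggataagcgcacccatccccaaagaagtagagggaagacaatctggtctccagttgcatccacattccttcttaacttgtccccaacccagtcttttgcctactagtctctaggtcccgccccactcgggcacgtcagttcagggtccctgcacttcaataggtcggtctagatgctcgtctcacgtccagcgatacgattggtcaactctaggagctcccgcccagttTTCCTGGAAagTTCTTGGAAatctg
Socs1, chr16:10785512-10785786 (minus strand): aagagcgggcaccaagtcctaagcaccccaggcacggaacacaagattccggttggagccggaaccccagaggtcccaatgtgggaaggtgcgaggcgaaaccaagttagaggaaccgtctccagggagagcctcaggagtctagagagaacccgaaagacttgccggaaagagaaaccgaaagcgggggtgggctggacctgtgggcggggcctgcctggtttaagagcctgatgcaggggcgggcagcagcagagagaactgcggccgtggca
Socs3, chr11:117969342-117969616 (minus strand): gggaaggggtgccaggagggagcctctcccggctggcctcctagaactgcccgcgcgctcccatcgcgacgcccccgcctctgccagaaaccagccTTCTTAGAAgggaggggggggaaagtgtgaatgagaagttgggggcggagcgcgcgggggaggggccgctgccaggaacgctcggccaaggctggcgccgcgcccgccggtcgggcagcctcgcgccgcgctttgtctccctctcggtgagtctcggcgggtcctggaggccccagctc

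The Cish window held 2 matches, TTCCTGGAA at bases 1 to 9 and TTCTTGGAA at bases 12 to 20, counted from 1 at the start each window is set on. The Socs3 window held 1 match, TTCTTAGAA, at bases -154 to -146 from its start (chr11:117969512-117969520, inside the gene span), and the Socs1 window held none. The motif reads the same on both strands. It occurred in 8.3% of 32841 RefSeq windows of 300 bases, and 0.457% held 2 or more. These matches are descriptions of the letters and not evidence of binding. By the same annotation Socs2 lies at chr10:95383903-95417321, Cish at chr9:107296659-107302784, Socs1 at chr16:10783808-10785536 and Socs3 at chr11:117966079-117970336.

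Probe sets of a gene moved together across the arrays. The 2 Socs2 probe sets correlated at r = 0.959 over the 12 arrays, and among the 18270 other tested probe sets 1418507_S_AT was the one most like 1449109_AT. In the other direction 1449109_AT had rank 2 among those most like 1418507_S_AT. The 3 Socs3 probe sets correlated at 0.97 to 0.993, and 1455899_X_AT and 1456212_X_AT were each other's closest match. Socs3 1416576_AT had rank 4 among those most like 1456212_X_AT and rank 24 among those most like 1455899_X_AT, so other probe sets were closer. These correlations describe 12 arrays that fall into 4 groups. In Affymetrix naming S marks probes shared by several transcripts and X marks probe sets with probes that may bind other sequences, so 1418507_S_AT, 1455899_X_AT and 1456212_X_AT are less specific by design. All 7 probe sets entered the tests, which needed a log2 value of at least 5 in any 3 arrays, and each of them reached that level on 10 to 12 arrays.

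**Figure D1:**
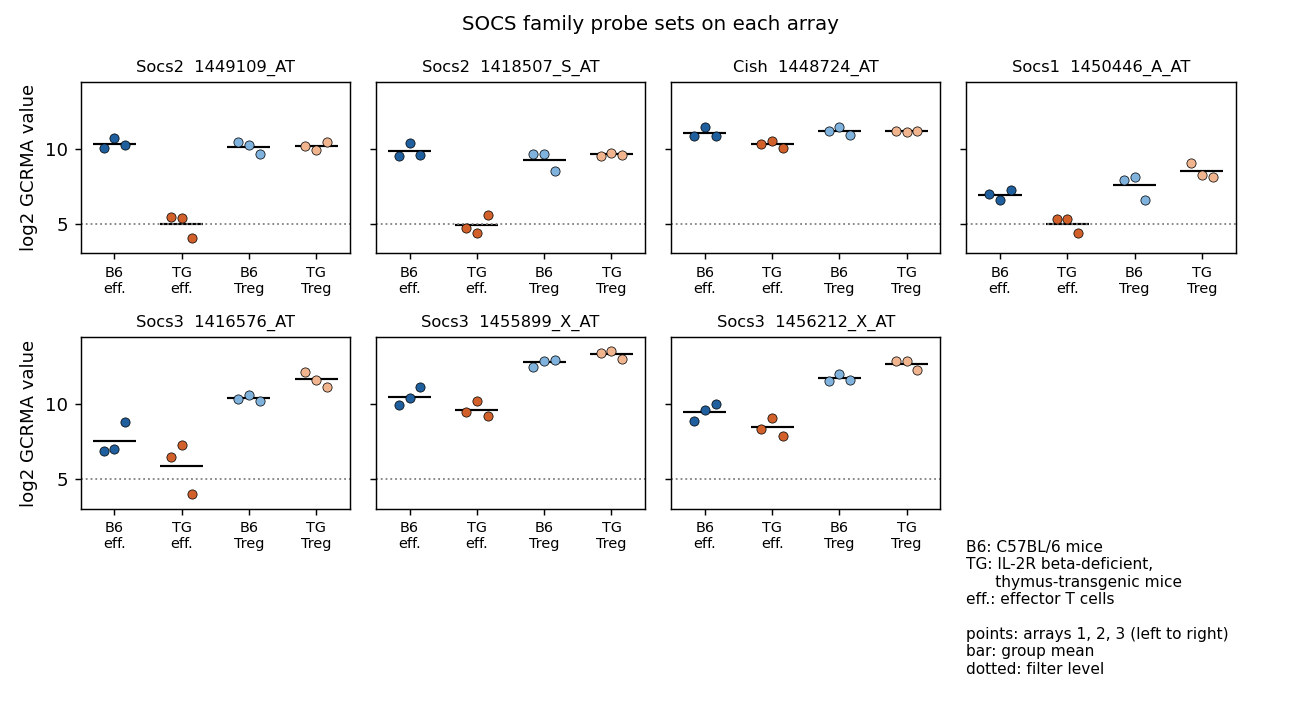
Log2 GCRMA value (vertical axis) of each SOCS family probe set on the 12 arrays, with arrays 1, 2 and 3 of a group from left to right, a bar at the group mean and a dotted line at the filter level of 5. B6 stands for C57BL/6, TG for transgenic and eff. for effector; Socs2 sits near 10 in every group except transgenic effector cells, where it lies between 4.03 and 5.6.

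Socs2 had the largest strain change of the family. In effector cells its transcript was 42.6-fold lower in transgenic than in C57BL/6 mice on 1449109_AT and 31.3-fold lower on 1418507_S_AT, while in Treg cells no strain difference was detected. On 1449109_AT the C57BL/6 effector arrays read 10.08, 10.74 and 10.29, and the transgenic effector arrays read 5.46, 5.37 and 4.03. The groups lay 4.61 apart at their nearest arrays, with all 3 transgenic arrays close to or below the filter level. The log2 change was -5.41 (standard error 0.37, limma adjusted p = 2.14e-05), the fifth largest fall of 18271 tested probe sets. On 1418507_S_AT the C57BL/6 arrays read 9.57, 10.44 and 9.60 and the transgenic arrays 4.72, 4.39 and 5.6, again without overlap. Its log2 change was -4.97 (standard error 0.38, limma adjusted p = 4.88e-05), the ninth largest fall. The probe sets differed on the third transgenic array, which was the lowest of its group on 1449109_AT and the highest on 1418507_S_AT. Without transgenic effector sample 3 the log2 changes were -4.95 and -5.31 (limma adjusted p = 2.81e-05 and 9.51e-05).

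Socs2 in Treg cells stayed near the level of C57BL/6 effector cells in both strains. On 1449109_AT the C57BL/6 Treg arrays read 10.49, 10.32 and 9.65 and the transgenic Treg arrays 10.21, 9.94 and 10.50. The strain ranges overlapped throughout. The log2 strain change was 0.06 (95% interval -0.75 to 0.87, limma adjusted p = 0.994) and on 1418507_S_AT it was 0.36 (-0.48 to 1.2, limma adjusted p = 0.902). On 1418507_S_AT the C57BL/6 Treg arrays read 9.68, 9.69 and 8.51 and the transgenic ones 9.57, 9.77 and 9.62. The third C57BL/6 Treg array was the lowest of its group on both probe sets, and without it the strain changes were -0.19 and -0.03. In order of mean level on 1449109_AT, C57BL/6 effector (10.37 ± 0.34, SD, n = 3), transgenic Treg (10.22 ± 0.28) and C57BL/6 Treg cells (10.15 ± 0.44) were not distinguished from their neighbours, and transgenic effector cells (4.96 ± 0.80) were lower than the next group by 5.20 (limma adjusted p = 2.6e-07). The order of the higher groups depends on the normalization. With quantile normalization C57BL/6 Treg cells lay above C57BL/6 effector cells by 0.41, without passing the test.

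Cish, whose product CIS is the founding member of the family, had a much smaller strain difference in effector cells, which did not pass the test. Its C57BL/6 effector arrays read 10.89, 11.50 and 10.92 and its transgenic effector arrays 10.37, 10.57 and 10.11. All 3 transgenic arrays lay below all 3 C57BL/6 arrays, by 0.33 at the nearest. The log2 change was -0.75 (standard error 0.19, 95% interval -1.18 to -0.33), a 1.69-fold lower mean (limma adjusted p = 0.069, unadjusted 0.00257). Without transgenic effector sample 3 it was -0.64 (limma adjusted p = 0.17). With array weights, which count noisier arrays less, it was -0.55 and passed (limma adjusted p = 0.0344). Those weights raised the calls over all tested probe sets from 547 to 3033. On effector arrays they ran from 0.229 (transgenic sample 3) to 3.93 (C57BL/6 sample 1). In Treg cells the C57BL/6 arrays read 11.23, 11.51 and 10.98 and the transgenic arrays 11.26, 11.13 and 11.24. The ranges overlapped, and the log2 strain change was -0.03 with a 95% interval of -0.46 to 0.40 (limma adjusted p = 0.997). The order of mean levels was C57BL/6 Treg (11.24 ± 0.26, SD, n = 3), transgenic Treg (11.21 ± 0.07), C57BL/6 effector (11.10 ± 0.34) and transgenic effector cells (10.35 ± 0.23), with no neighbours told apart by the test.

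Socs1, which encodes a direct inhibitor of JAK kinases, was also lower in transgenic effector cells. Its C57BL/6 effector arrays read 6.99, 6.56 and 7.23, and its transgenic effector arrays 5.31, 5.30 and 4.39. The groups were 1.25 apart, and the transgenic arrays lay at the level used for filtering. The log2 change was -1.93 (standard error 0.42), a 3.8-fold fall (limma adjusted p = 0.0344). This call was narrow. It was lost without any 1 of the 6 effector arrays, or without transgenic Treg sample 2 or 3, with changes of -1.62 to -2.11 and limma adjusted p of 0.0507 to 0.134. Without transgenic effector sample 3 the change was -1.62 (limma adjusted p = 0.0993). The call was lost as well with quantile normalization (-1.71, limma adjusted p = 0.11) and without a filter (-1.93, limma adjusted p = 0.0918).

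In Treg cells Socs1 ran the other way without passing the test. The C57BL/6 Treg arrays read 7.95, 8.14 and 6.61 and the transgenic Treg arrays 9.10, 8.28 and 8.14. The groups touched at 8.14 and just failed to overlap, and the low C57BL/6 array was sample 3. The log2 change was 0.94 (95% interval 0.01 to 1.88, limma adjusted p = 0.525), 0.46 without C57BL/6 Treg sample 3 and 0.65 without transgenic Treg sample 1, the pool from mice of 33 weeks. Mean levels ran from transgenic Treg (8.51 ± 0.52, SD, n = 3) over C57BL/6 Treg (7.56 ± 0.84) and C57BL/6 effector (6.93 ± 0.34) to transgenic effector cells (5.0 ± 0.53). Of the neighbours in this order, only the last pair was told apart.

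Socs3, which encodes the inhibitor of gp130 signals, had its highest values in Treg cells and no strain call in either population. On 1455899_X_AT, its brightest probe set, the C57BL/6 effector arrays read 9.95, 10.40 and 11.19 and the transgenic effector arrays 9.46, 10.24 and 9.21. The strains overlapped, and the log2 change was -0.88 (95% interval -1.60 to -0.15, limma adjusted p = 0.22). On 1456212_X_AT the C57BL/6 effector arrays read 8.86, 9.64 and 10.06 and the transgenic ones 8.38, 9.10 and 7.90, a log2 change of -1.06 (-1.82 to -0.29, limma adjusted p = 0.156). On 1416576_AT they read 6.87, 7.01 and 8.81 against 6.46, 7.25 and 3.95, a log2 change of -1.68 (-3.30 to -0.05, limma adjusted p = 0.309). On all 3 probe sets the highest effector array was C57BL/6 sample 3 and the lowest was transgenic sample 3. Without that transgenic array the changes were -0.66, -0.78 and -0.71 in the same order. With array weights they were -0.31, -0.41 and -0.41, and without C57BL/6 effector sample 3 those of 1455899_X_AT and 1416576_AT were -0.54 and -1.05.

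The Treg arrays of Socs3 were higher in transgenic mice on every array, without a call. On 1455899_X_AT they read 12.50, 12.95 and 13.01 in C57BL/6 and 13.43, 13.62 and 13.07 in transgenic mice. On 1456212_X_AT they read 11.57, 12.05 and 11.64 in C57BL/6 and 12.93, 12.94 and 12.30 in transgenic mice. On 1416576_AT they read 10.35, 10.65 and 10.21 in C57BL/6 and 12.21, 11.64 and 11.18 in transgenic mice. The gaps between the strains were 0.06, 0.25 and 0.53. The log2 changes were 0.55 (95% interval -0.17 to 1.28), 0.97 (0.21 to 1.74) and 1.27 (-0.35 to 2.90), with limma adjusted p of 0.724, 0.338 and 0.712. Without transgenic Treg sample 1 they were 0.53, 0.87 and 1.01. On 1455899_X_AT the order of mean levels was transgenic Treg (13.37 ± 0.28, SD, n = 3), C57BL/6 Treg (12.82 ± 0.28), C57BL/6 effector (10.51 ± 0.62) and transgenic effector cells (9.64 ± 0.54). Only the step from C57BL/6 Treg to C57BL/6 effector cells passed the test, as it did on the other Socs3 probe sets.

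**Figure D2:**
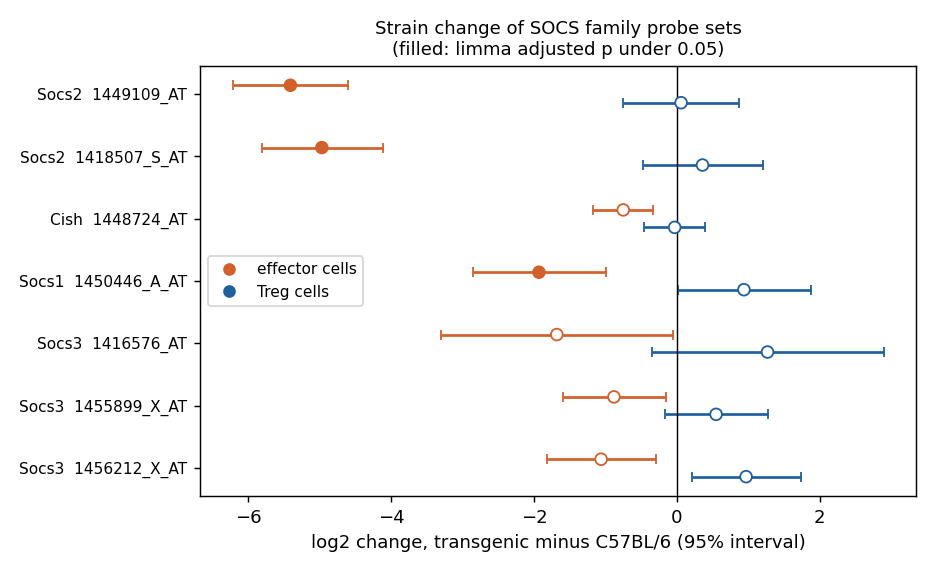
Log2 change of each SOCS family probe set, transgenic minus C57BL/6 (horizontal axis), in effector cells (orange) and Treg cells (blue), with 95% intervals of the limma fit; filled points have an adjusted p under 0.05. All 7 effector points lie below 0, from -5.41 to -0.75, and the Treg points lie between -0.03 and 1.27.

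Across the family, 3 of the 7 probe sets, both of Socs2 and that of Socs1, were called lower in transgenic effector cells at a limma adjusted p under 0.05, against 1.08% of all tested probe sets. The groups did not overlap in 4 of 7 (those 3 and Cish), against 10.1% of all tested probe sets lower without overlap. All 7 estimates were negative, with a median log2 change of -1.68 against -0.0053 over all tested probe sets. In Treg cells 0 of 7 were called in either direction by limma, against 1.19%. The lowest unadjusted limma p were 0.0173 (Socs3 1456212_X_AT) and 0.0479 (Socs1), and the share of all tested probe sets at such values was not counted. No family probe set was called in Treg cells under any alternative run either. The groups did not overlap in 4 of 7, Socs1 and the 3 of Socs3, against 7.65% higher without overlap. The median Treg change was 0.55, against 0.028 over all tested probe sets. Probe sets of a gene share its RNA and are not separate observations. With 3 arrays against 3, an exact permutation test of a single probe set cannot give a two-sided p below 0.1, and it gave 0.1 wherever groups did not overlap. Bulk samples cannot tell fewer cells carrying a transcript from less transcript in each cell.

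The strain change itself differed between the populations for Socs2 and Socs1. Treg minus effector, the difference of log2 strain changes was 5.47 (standard error 0.52, limma adjusted p = 0.000502) on 1449109_AT and 5.33 (standard error 0.54, limma adjusted p = 0.000625) on 1418507_S_AT, places 2 and 3 among the positive differences of all tested probe sets. For Socs1 it was 2.87 (95% interval 1.55 to 4.19, limma adjusted p = 0.0331), a call that was lost when any 1 of 9 of the 12 arrays was left out, when it was 2.56 to 3.05 (limma adjusted p = 0.0508 to 0.0938). For Cish it was 0.72 (0.12 to 1.33, limma adjusted p = 0.27). For Socs3 it was 2.95, 1.43 and 2.03 on 1416576_AT, 1455899_X_AT and 1456212_X_AT (limma adjusted p = 0.228, 0.182 and 0.0619). The last of these passed in only 2 of 12 runs with 1 array left out. These were without C57BL/6 effector sample 1 (2.36, limma adjusted p = 0.0364) and without transgenic effector sample 2 (2.35, limma adjusted p = 0.0352). Over the 12 runs its limma adjusted p reached 0.162. The differences on 1416576_AT and 1456212_X_AT were lowest without transgenic effector sample 3, at 1.98 and 1.75. In all, 3 of 7 probe sets were called, against 0.744% of tested probe sets called in that direction. Effector and Treg arrays also differed in culture, in pooling and in the run of their sample codes, and these cannot be told apart from the cell population.

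**Figure D3:**
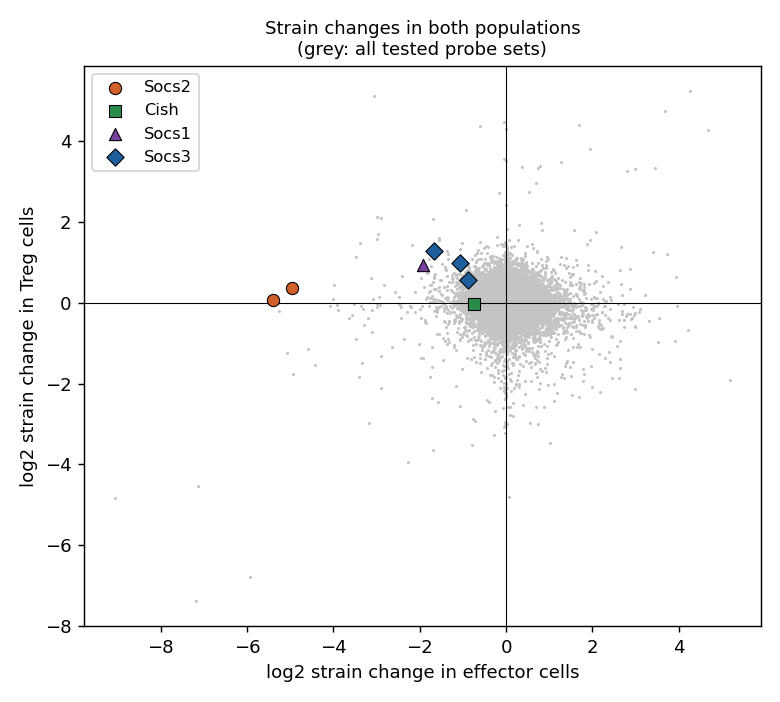
Log2 strain change (transgenic minus C57BL/6) in effector cells (horizontal axis) and in Treg cells (vertical axis) for all 18271 tested probe sets (grey) and the SOCS family (coloured symbols by gene). Both Socs2 probe sets lie far to the left at Treg changes of 0.06 and 0.36, Socs1 and Socs3 lie to the upper left, and Cish at -0.75 and -0.03 lies within the grey cloud.

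The unequal response of the genes was followed within arrays, as the difference of 2 log2 values on the same array, using the brightest probe set of each gene. Only the shift of this difference between strains is read, since levels of different probe sets are not comparable. Socs2 minus Cish ran from -0.82 to -0.63 on C57BL/6 effector arrays and from -6.08 to -4.90 on transgenic effector arrays, a shift of -4.66 (two-sided exact permutation p = 0.1). In Treg cells the same difference ran from -1.33 to -0.74 and from -1.19 to -0.75, a shift of 0.09 (exact permutation p = 0.8). In effector cells Socs2 minus Socs1 shifted by -3.49 and Socs2 minus Socs3 by -4.54, with no overlap between the strains in either. Cish minus Socs3 shifted by 0.12 in effector cells, where the strains overlapped (exact permutation p = 1). The Socs3 probe set used, 1455899_X_AT, had the smallest effector change of that gene (-0.88, against -1.06 and -1.68 on the others). The size of this shift therefore depends on the Socs3 probe set. Cish minus Socs1 shifted by 1.17 in effector and by -0.97 in Treg cells, both without overlap. Of 12 such comparisons (6 pairs of genes in 2 populations), 6 had an exact permutation p of 0.1, and the lowest p adjusted over the 12 was 0.2. Each shift is the difference of 2 strain changes given above, on the same arrays. The comparisons share 4 probe sets, so the fall of Socs2 enters several of them again and they are not separate evidence.

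**Figure D4:**
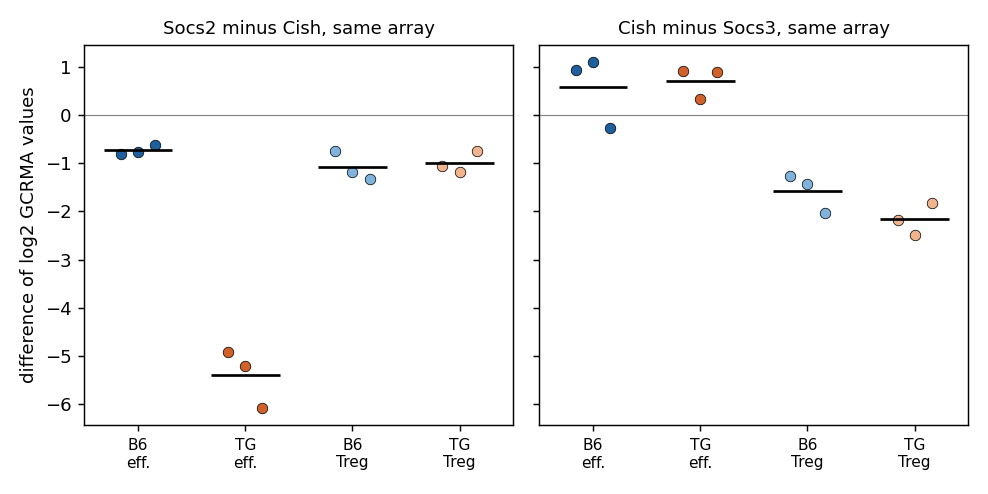
Difference of log2 GCRMA values on the same array (vertical axis) for Socs2 minus Cish (left) and Cish minus Socs3 (right) in the 4 groups (B6, C57BL/6; TG, transgenic; eff., effector), with points for arrays and bars for group means. Socs2 minus Cish drops to between -6.08 and -4.90 in transgenic effector cells alone among the groups, while Cish minus Socs3 overlaps between strains in effector cells.

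Fresh Treg cells of C57BL/6 mice had more Socs3 transcript than activated effector cells of the same strain. The log2 difference was 2.31 (standard error 0.33, limma adjusted p = 6.11e-05) on 1455899_X_AT, 2.23 (limma adjusted p = 0.000124) on 1456212_X_AT and 2.84 (limma adjusted p = 0.00454) on 1416576_AT, which are 4.95-fold, 4.7-fold and 7.16-fold. The 2 populations did not overlap on any of the 3. Socs2, Cish and Socs1 were not called. Their differences were -0.21 (95% interval -1.02 to 0.60) and -0.57 (-1.42 to 0.27) for Socs2, 0.14 (-0.29 to 0.57) for Cish and 0.64 (-0.30 to 1.57) for Socs1. So 3 of 7 were called higher, against 31.7% of all tested probe sets, and 3 of 7 were higher without overlap, against 33.0%, shares near the background. The minimum deposited value was 0.296 to 0.325 on effector arrays and 0.942 to 0.957 on Treg arrays, so a scale difference may enter levels compared between the populations. Quantile normalization moved the median over the whole set of tested probe sets from -0.26 to -0.041 in C57BL/6 and from -0.21 to 0.018 in transgenic mice. With quantile normalization the difference of Cish was 0.85 and passed (limma adjusted p = 0.00234), that of Socs2 1449109_AT turned to 0.41 without passing, and those of Socs3 were 2.91, 2.85 and 3.24. Cish also passed with array weights (0.45, limma adjusted p = 0.00863), as did Socs1 (1.13, limma adjusted p = 0.000384). Socs1 passed without C57BL/6 Treg sample 3 as well (1.12, limma adjusted p = 0.0169). The third C57BL/6 Treg array was the lowest of its group for Socs2, Cish, Socs1 and Socs3 1416576_AT.

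In transgenic mice every member was higher in Treg than in effector cells. The log2 differences were 5.26 and 4.75 for Socs2, 0.86 for Cish, 3.51 for Socs1, and 5.79, 3.74 and 4.27 for Socs3 on 1416576_AT, 1455899_X_AT and 1456212_X_AT. Their limma adjusted p ran from 2.29e-07 (Socs2 1449109_AT) to 0.00204 (Cish). All 7 were called, against 30.0% of tested probe sets called higher, and all 7 were higher without overlap, against 31.8%. The 7 calls held under every alternative run, with Cish between 0.74 and 1.49. This comparison shares its effector arrays and its Treg arrays with both strain comparisons, so the fall of Socs2 in transgenic effector cells enters it again. Without transgenic effector sample 3 the difference of Socs3 1416576_AT was 4.82 and that of Socs1 was 3.2.

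Over the 12 arrays Socs2 and Cish were close to each other. Leaving out the listed Socs2 probe sets, Cish was the fourth most alike of all tested probe sets to Socs2 1449109_AT (Pearson r = 0.912 over 12 arrays). Socs2 was the second most alike to Cish. Whether the unnamed probe sets below belong to other genes is not known here. The closest unnamed probe sets were 1440938_AT for Socs2 (r = 0.956), which had log2 strain changes of -2.12 in effector and 0.27 in Treg cells, and 1427683_AT for Cish (r = 0.918), with -1.60 and -0.15. For Socs1 and Socs3 the 5 most alike probe sets, leaving out the listed ones of the gene, reached r of 0.947 to 0.953 and 0.977 to 0.987. None was a member. Within the 6 effector arrays the 5 most alike, chosen in the same way, reached 0.994 to 0.997 for Socs2 and 0.983 to 0.992 for Cish. None was a member. Between the brightest probe sets of the genes, r over the 12 arrays was lowest for Socs2 with Socs3 (0.679) and highest for Socs2 with Cish. These values describe arrays that share groups, and say nothing on shared control.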

How the data were processed

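The authors deposited 1 table of log2 values, 45101 probe sets by 12 arrays, made with GCRMA per the submitters' processing notes (version not given in the sources used here). Whether both populations were normalized together is not given there either. Per the labels' protocols, amplification of the RNA used 1 in vitro transcription. Replicate numbers follow the sample titles, although 2 effector descriptions carry other numbers.

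The 64 control probe sets were left out, and 18271 others with a log2 value of at least 5 on 3 or more arrays were tested. A single model with 4 group means was fitted to the 12 arrays with limma 3.58.1 in R 4.3.3 (eBayes with a mean trend), and a Benjamini-Hochberg adjusted p under 0.05 over all tested probe sets is called changed. Single values were also compared by exact permutation. The fitting steps were checked on simulated data with independent noise, equal on all arrays of a probe set. Uneven or paired arrays were not simulated. The number of arrays limits the precision.

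The members and gene lists were chosen with earlier results of these data known. All 7 members are named. The most alike probe sets are those with the highest Pearson r, 5 per gene, leaving out the listed member probe sets of the gene. The other gene lists and marker lists of the design could not be matched to probe sets here and were not analysed. Alternatives were other normalizations, filters and variance models, array weights, fits to the compared arrays alone, blocks for replicate number and for runs of consecutive sample codes, and omitting out each array. Same-numbered Treg arrays of both strains correlated in their deviations from the group means at 0.58, 0.10 and 0.51, and same-numbered effector arrays at 0.21, -0.34 and -0.34. Unlike-numbered arrays reached 0.11 in Treg cells, above the second same-numbered pair, and 0.42 in effector cells. The main fit used no pairing. The replicate block over both populations and the block in Treg cells alone took the numbers to pair arrays, which no label supports. The choice of the block in Treg cells alone rests on these values. Figures were drawn with matplotlib 3.10.9.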

Additional observations from a re-analysis of the deposited data

Results flagged for a closer look

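Strain changes that differ between Treg and effector cells by the interaction test stand out for 3 probe sets of the family. The difference of log2 changes, Treg minus effector, was 5.47 for Socs2 on 1449109_AT and 5.33 on 1418507_S_AT (limma adjusted p = 0.000502 and 0.000625). For Socs1 it was 2.87 (limma adjusted p = 0.0331), a narrow call that was lost in 9 of 12 runs with 1 array left out. Groups of 3 arrays are too small to test a single array as an outlier.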

How the results depend on the processing

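Both Socs2 probe sets kept their effector fall and their difference between populations under every alternative, the fall between -4.40 and -5.67 on the log2 scale. The results that changed sides were those of Socs1, Cish and 1 Socs3 probe set. The Socs1 effector fall missed the threshold with quantile normalization (-1.71) and without a filter (-1.93), and ranged from -2.11 to -1.62 with 1 array left out. Its difference between populations did so in the same settings (2.77 and 2.87), and ranged from 2.39 to 3.16 with 1 array left out. With array weights the Cish effector change passed (-0.55). In that run 5 in place of 3 family probe sets were called higher in Treg than in effector cells of C57BL/6 mice. Of all 18271 tested probe sets, 6700 in place of 5794 were called higher there, so calls rose over the whole array too. The difference between populations on Socs3 1456212_X_AT ranged from 1.75 to 2.36 with 1 array left out. The cause of these changes was not tested. The array weights rested the C57BL/6 Treg mean mostly on array 2 (weight 5.02) and the C57BL/6 effector mean mostly on array 1 (weight 3.93).

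A replicate block over both populations changed no family call. It gave -5.41 for Socs2 1449109_AT in effector cells (limma adjusted p = 0.000703) and -1.93 for Socs1 (limma adjusted p = 0.0417). The block in Treg cells alone was chosen after seeing the data. With it the strain change in Treg cells still had 0 family calls, and 354 in place of 218 of all probe sets were called. The Socs1 difference between populations passed with that block as well (2.87, limma adjusted p = 0.0145).

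Over all probe sets the 547 effector calls became 3033 with array weights, 347 without a filter and 273 with the compared arrays alone, and 243 to 629 with 1 array left out. The 218 Treg calls became 1232, 135 (filter at log2 7) and 68 (compared arrays alone), and 89 to 232. The 413 calls between strain changes became 2529 with array weights and 198 to 399 with 1 array left out. Without a filter 31870 in place of 13475 (C57BL/6) and 31397 in place of 12789 (transgenic) probe sets were called between populations. Background signal was not measured here, and its part in the size of the Socs2 and Socs1 falls was not tested.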
